A study of Homo sapiens with 4 samples.

Results

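FOXQ1 was examined together with 9 other forkhead transcription factors, FOXM1, FOXO1, FOXO3, FOXC1, FOXP1, FOXK1, FOXK2, FOXJ3 and FOXN3, in MDA-MB-231 cells, an established line from a human breast cancer that lacks hormone receptors and HER2 amplification. Every row of the deposited transcript table whose gene symbol is one of these 10 was taken, which gave 31 of 43596 transcript rows and 10 of 15113 gene symbols. The 4 libraries were mRNA libraries from total RNA of cells kept for 24 h with DMSO, the solvent, or with 10 µM KH-3, a small molecule that the authors identified as an inhibitor of HuR binding to mRNA, with 2 libraries in each condition. The labels do not say whether the 2 libraries of a condition came from separate cultures.

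The table gives 1 value for each transcript that could be used here, a mean normalised read count that the authors formed over the libraries. DMSO and KH-3 libraries cannot be told apart in this mean, and the sources used here do not say which libraries entered it. The values are therefore given as the authors' means. They have no SD and no n, their depth is unknown, and a difference between a pair of genes cannot be set against the spread between replicates. The authors' own comparison of KH-3 with DMSO was not used, so no response of a forkhead gene to KH-3 is given.

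Forkhead factors share a winged-helix DNA-binding domain, the forkhead domain, and differ in most of the protein outside it. FOXQ1 is known for driving epithelial-to-mesenchymal transition in carcinoma cells, and FOXC1 is known as a gene of basal-like breast cancer. FOXM1 drives the genes of G2 and mitosis, whereas FOXO1 and FOXO3 are held in the cytoplasm after phosphorylation by AKT and binding of 14-3-3 proteins. FOXP1, FOXK1, FOXK2 and FOXN3 act mainly as repressors, and FOXJ3 is known as an activator of MEF2C in muscle.

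HuR, encoded by ELAVL1, binds U-rich and AU-rich elements, many of them in 3′ untranslated regions (3′UTRs), and the pentamer AUUUA is the classic core of such an element. The 3′UTR of FOXQ1 in the annotation (GENCODE release 44, hg38) was 842 bases long and held 3 AUUUA pentamers. The transcript FOXQ1-001 has 2661 bases in that annotation and 2309 in the authors' table. At which end the extra bases lie was not examined, so it is not known whether the 3′UTR that the authors mapped to was shorter. U-rich stretches without this pentamer were not searched. The pentamers are shown because the study asked about binding of HuR to AU-rich sequence in FOXQ1 mRNA, and whether HuR binds each of them was not tested here. Each is printed as DNA, 5′ to 3′, with 12 bases on either side and the pentamer in capitals.
FOXQ1 site 1, chr6:1314059-1314087, + strand: tttgacaggagtATTTAaacttagtccag
FOXQ1 site 2, chr6:1314240-1314268, + strand: caacttccattgATTTAtgtcccttccct
FOXQ1 site 3, chr6:1314468-1314496, + strand: tgtaattaaattATTTAtatatttttgaa
The pentamers began at bases 155, 336 and 564 of the 3′UTR. Site 3 was the one that lay in the longer heptamer UAUUUAU, and 93.1% of its window was A or U, against 65.5% at site 1 and 58.6% at site 2. The RNA oligomer that the authors used to pull down HuR with FOXQ1 sequence lies wholly within the window of site 3. A match of these letters describes the sequence and does not show that HuR was bound there.

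Of the other members, 5 had a UAUUUAU heptamer in the 3′UTR. The window with the most A and U around such a heptamer is shown for each, for comparison with FOXQ1 site 3.
FOXN3, chr14:89157736-89157764, − strand: tacttttttattATTTAtactactatata
FOXK2, chr17:82602874-82602902, + strand: catcataacattATTTAtttaaatgtagt
FOXJ3, chr1:42178894-42178922, − strand: attcacctatgtATTTAttattcaaaagt
FOXP1, chr3:70957587-70957615, − strand: ttcctgtcatttATTTAtataggactgta
FOXK1, chr7:4769261-4769289, + strand: agccgtgaatgtATTTAtttgctttggtg
A and U made up 89.7% of the FOXN3 window, 82.8% of that of FOXK2, 79.3% of that of FOXJ3, 72.4% of that of FOXP1 and 62.1% of that of FOXK1. The FOXP1 window comes from FOXP1-001, a minor transcript of the gene by level, since FOXP1-201 is cut short in release 44 and has no AUUUA in the 3′UTR given there. None of these 5 windows had a larger share than the 93.1% of FOXQ1 site 3. That share was not particular to FOXQ1 among all pentamer windows. A FOXO3 pentamer outside any heptamer, at chr6:108684267-108684295, also had 93.1%, and FOXK2 pentamers outside its heptamer reached 89.7%.

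FOXQ1 was listed with 1 transcript, FOXQ1-001, which is protein-coding, has a length of 2309 bases in the table and had a mean normalised read count of 240. Long transcripts collect more reads than short ones, so levels were compared between genes only after division by length. The level of a gene is given here as its mean normalised read count per kilobase (kb), summed over its listed transcripts. The level of FOXQ1 was 104 per kb. This was the place 7692 among 15113 genes, or percentile 49.1, beside a median gene level of 108 per kb with quartiles of 27.4 and 316 per kb. FOXQ1 thus lay near the middle of all listed genes. Over the 6 ways of counting compared later, its place ran from percentile 35.7, with rows of a mean count of at least 50, to 61.1, with the largest transcript alone. Its single transcript was at percentile 82.6 among the 4824 genes with 1 row. That set also holds non-coding genes, as 12120 of the 15113 genes had a protein-coding row. With protein-coding transcripts only, FOXQ1 was at percentile 46.9 among the genes that had any.

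FOXM1 and FOXK2 stood above the other members. FOXM1 had a level of 742 per kb, percentile 89.1 among all genes and 7.14 times the level of FOXQ1. FOXK2 had a level of 491 per kb, percentile 83.1 and 4.72 times that of FOXQ1. The size of both ratios depended on the way of counting. With the largest transcript alone, FOXM1 was at 3.26 times and FOXK2 at 2.86 times the level of FOXQ1. With protein-coding transcripts only, the ratios were 5.73 for FOXM1 and 3.34 for FOXK2. Without division by length, they were larger, at 9.35 for FOXM1 and 8.13 for FOXK2. FOXK2 binds DNA together with the deubiquitinase BAP1, whose level is given with the partner genes.

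A group of 5 members, with FOXQ1 among them, lay within a narrow range around the median of all genes. FOXP1 had a level of 152 per kb, FOXO3 of 120 per kb and FOXK1 of 111 per kb, which were 1.46, 1.15 and 1.07 times the level of FOXQ1. FOXN3 followed FOXQ1 at 96.1 per kb, or 0.925 times its level. With no replicate values, the order within this group of neighbours cannot be tested, and it turned for FOXP1, FOXO3 and FOXK1 when the largest transcript alone was counted.

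FOXO1, FOXC1 and FOXJ3 were the lowest of the members. FOXO1 had a level of 66.7 per kb, or 0.642 times that of FOXQ1. FOXC1, which like FOXQ1 and FOXO1 had 1 listed transcript, had 43.1 per kb, and FOXQ1 was at 2.41 times this level. FOXJ3 was the lowest at 21.8 per kb, percentile 21.6, and the level of FOXM1 was 34.0 times higher. FOXQ1 was 6th of the 10 members, and 5 members were above the median gene level.

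**Figure D1:**
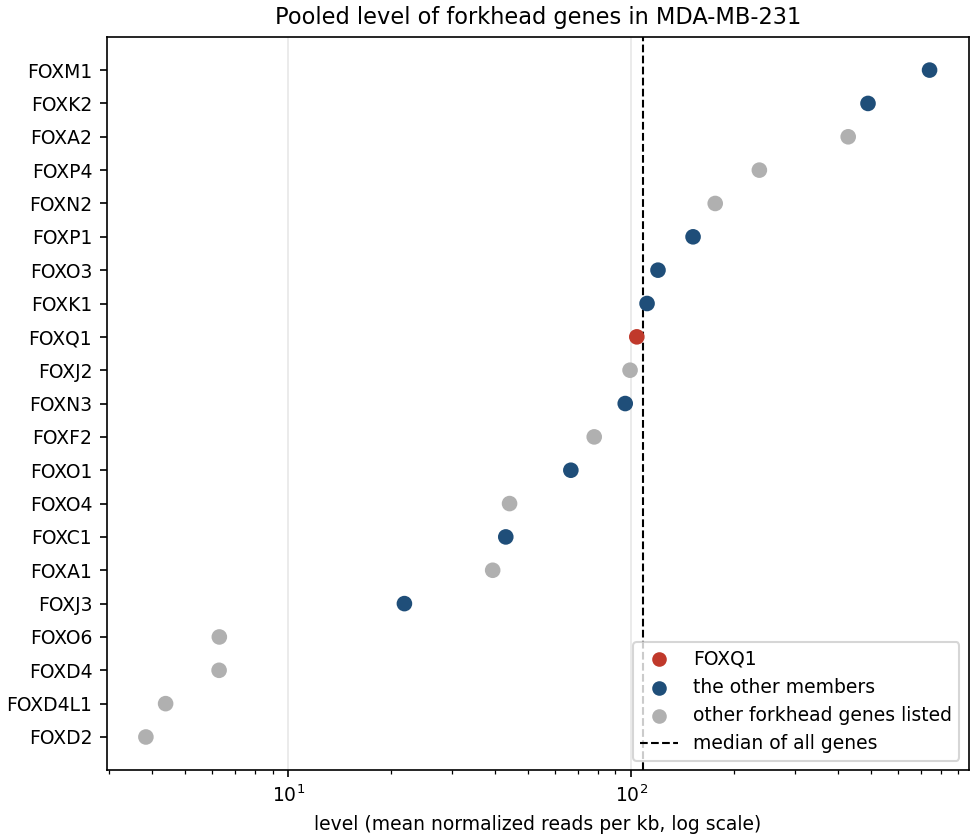
Level of each listed forkhead gene on a log scale, in mean normalised reads per kb as pooled over libraries by the authors, with FOXQ1 in red, the other members in blue, other forkhead genes in grey and the median of all genes (108 per kb) as a dashed line. FOXM1 and FOXK2 lie to the right at 742 and 491 per kb, while FOXQ1 at 104 per kb sits just left of the median. There are no error bars because the table has no values per library.

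Among 49 human forkhead genes in a list from general knowledge, 21 were listed in the table and 28 were not. A gene without a row is not thereby absent from the cells, because the lowest mean count in the table was 7.34 and transcripts below it may have been left out. The 11 listed forkhead genes outside the 10 had a median level of 44.2 per kb, against 108 per kb for the members. The members were not drawn at random from the family, so these medians describe the 2 sets and no more. The members held 63.4% of the summed level of all listed forkhead genes, FOXM1 alone 24.2% and FOXQ1 3.38%.

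FOXQ1 was 9th among the 21. FOXA2, a pioneer factor of endoderm and liver, came next after FOXM1 and FOXK2 in the family with 430 per kb from 2 protein-coding transcripts. FOXP4, which pairs with FOXP1, had 237 per kb and FOXN2 had 176 per kb. These were the 3 non-members above FOXQ1.

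FOXJ2 was the non-member closest to FOXQ1, with 99.3 per kb. FOXF2, a gene of mesenchymal development, had 78.0 per kb, FOXO4 had 44.2 per kb and FOXA1, the pioneer factor of luminal breast cells, had 39.5 per kb. FOXO6, FOXD4, FOXD4L1 and FOXD2 were at 6.30, 6.29, 4.39 and 3.85 per kb, and each came from 1 row with a mean count under 50. The FOXD4 genes are near-identical copies, so the reads counted for each are uncertain.

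FOXQ1, FOXF2 and FOXC1 are neighbours on the short arm of chromosome 6. FOXQ1 spans chr6:1312098-1314758, and 74817 bases lie between it and FOXF2 at chr6:1389576-1395603. A further 214311 bases separate FOXF2 from FOXC1 at chr6:1609915-1613897. Their levels fell in the order in which they stand from the chromosome end, with 104 per kb for FOXQ1, 78.0 per kb for FOXF2 and 43.1 per kb for FOXC1. FOXQ1 and FOXC1 have 1 exon each, as had 2.29% of all genes examined, whereas the members elsewhere in the genome have introns.

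The other members lie on 8 further loci of hg38. FOXM1 is at chr12:2857680-2877174 on the − strand and FOXK2 at chr17:82519713-82644662 on the + strand. FOXO1 is at chr13:40555667-40666641 on the − strand and FOXO3 at chr6:108559835-108684774 on the + strand. FOXP1, the longest of the genes, is at chr3:70954693-71583978 on the − strand, and FOXN3 is at chr14:89124871-89619149 on the − strand. FOXK1 is at chr7:4682295-4771442 on the + strand and FOXJ3 at chr1:42176539-42335877 on the − strand.

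The 31 member rows were of 5 annotated types. Protein-coding transcripts made up 23 of them, processed transcripts without an open reading frame 3, retained introns 3, and 1 row each was a target of nonsense-mediated decay and a transcript of the class TEC, whose coding status the annotation does not give. In 10 rows the mean count was under 50. For 7 members every listed row was protein-coding, and the exceptions were FOXM1, FOXK2 and FOXP1, which also had the most rows.

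FOXM1 had 7 rows. FOXM1-002, which encodes 763 residues, had a mean count of 1122 and held 45.6% of the level of the gene. The retained-intron transcript FOXM1-004 held 18.5%, FOXM1-003 with 801 residues 13.3% and FOXM1-201 with 748 residues 10.2%. FOXM1-001, with the same protein length as FOXM1-201, held 5.52%. Protein-coding rows together made 80.2% of the FOXM1 level. These transcripts overlap so far that FOXM1-002 has 20 exonic bases found in no other listed FOXM1 transcript, 0.563% of its length, and FOXM1-201 and FOXM1-001 have 0, so the split of the reads among them rests on the authors' estimate from shared reads.

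FOXK2 also had 7 rows. FOXK2-001, the full-length coding transcript, had a mean count of 1566 and 60.6% of the level. FOXK2-002, annotated as a target of nonsense-mediated decay, held 11.1% with a mean count of 189. FOXK2-011, a coding fragment of 571 bases, held 10.1% from a mean count of only 28.4. The largest processed transcript, FOXK2-003, held 6.55%, the TEC transcript FOXK2-008 3.43% and the retained intron FOXK2-009 3.13%. Protein-coding rows made 70.7% of the FOXK2 level, the lowest share of the 10 members. Rows shorter than 1 kb carried 18.3% of it.

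FOXP1 had 5 rows, with FOXP1-201 at 60.2% of the level and a mean count of 582. The processed transcript FOXP1-025 held 17.8% on a length of 777 bases, from a mean count of only 21.0. The coding transcript FOXP1-004 held 10.0% with a mean count of 75.5. FOXP1-001, which encodes 677 residues, held 6.02%. FOXP1-201 encodes 576 residues in release 44, where the transcript has 1910 bases instead of the 6384 of the table.

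FOXO3 was split between FOXO3-001, with 60.4% of the level and a mean count of 529, and FOXO3-201, with 39.6% and a mean count of 348. Both encode the same length of protein, 673 residues, and 181 and 169 of their bases are found in one and not in the other. FOXK1-001 held 91.0% of the FOXK1 level with a mean count of 1132, and FOXK1-002, a fragment of 758 bases whose annotated reading frame has no start codon, held the rest. FOXN3-003 held 96.4% of the FOXN3 level with a mean count of 726.

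FOXJ3 had 3 coding rows. FOXJ3-201 held 64.4% with a mean count of 73.4, FOXJ3-202 25.3% with 28.2, and FOXJ3-002 10.2% with 11.97. FOXJ3-202 encodes 588 residues and the other pair 622. FOXO1-001, at a mean count of 383, and FOXC1-001, at 169, were the sole rows of their genes, like FOXQ1-001.

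**Figure D2:**
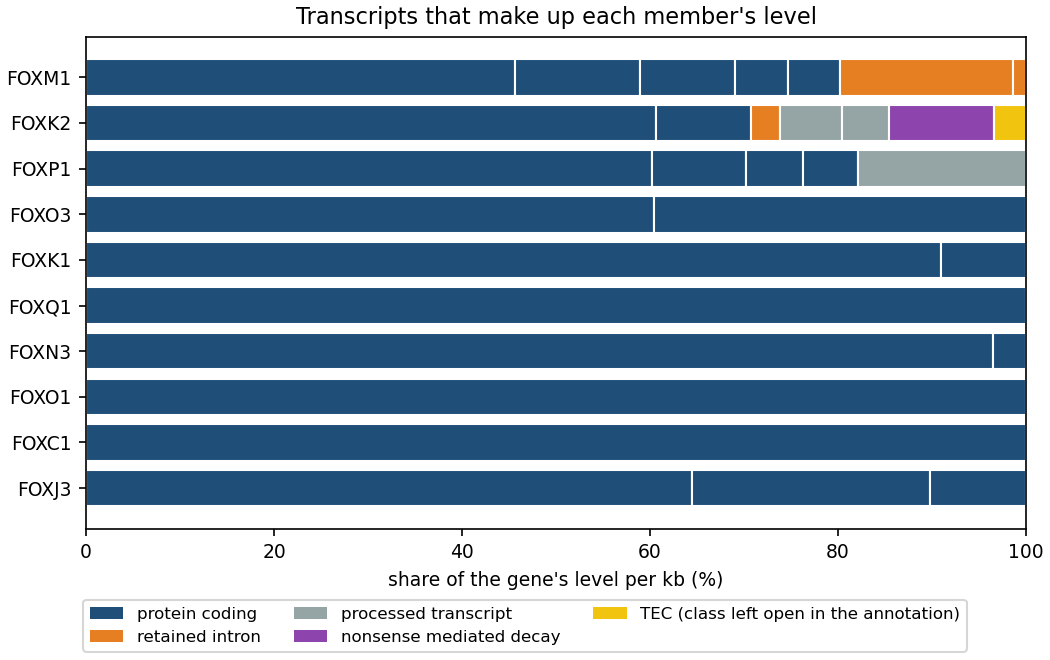
Share of each listed transcript in the level per kb of its gene, in percent, for the 10 members from the highest level (top) to the lowest (bottom), with 1 segment for each transcript and the colour giving its annotated type. FOXQ1, FOXO1 and FOXC1 are a single coding segment, while non-coding types take part of the bars of FOXM1, FOXK2 and FOXP1.

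Reads can also be shared with other genes. None of the 2612 stretches of 50 bases in FOXQ1-001 occurred in a transcript of another gene in release 44. For FOXO3, 37.7% of such stretches did, nearly all of them in the pseudogene FOXO3B, which was listed at 8.46 per kb. For FOXM1, 19.7% were shared with transcripts of ITFG2. A stretch also counted as shared when its reverse complement occurred in the other transcript, so these shares can include antisense overlap. FOXP1 shared 32.6%, FOXO1 22.8%, FOXK2 22.0% and FOXN3 12.4%, mostly with transcripts that carry no gene name. FOXK1, FOXJ3 and FOXC1 shared 3.18%, 1.04% and 0.508%. FOXQ1 was thus the only member for which no such sharing was found. The search covered release 44 and a single transcript of each member, whereas the authors counted on release 24. How far shared reads affect the levels was therefore not measured.

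The antisense genes listed with a forkhead name were FOXD3-AS1 at 67.3 per kb, FOXN3-AS1 at 18.4 per kb and FOXD2-AS1 at 17.2 per kb. FOXN3-AS1 is the one that belongs to a member, and its level was below the 96.1 per kb of FOXN3. Whether the counting used strand is not given in the sources used here, so reads of FOXN3 and of FOXN3-AS1 may not have been told apart.

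How far the place of FOXQ1 depends on the way of counting was examined next. With the coding transcripts alone, or with 200 bases taken off each length, every other member stayed on its side of FOXQ1. With the largest transcript alone FOXQ1 moved from 6th to 3rd, behind FOXM1 and FOXK2, because the levels of FOXP1, FOXO3 and FOXK1 came to 0.878, 0.696 and 0.975 times that of FOXQ1. Without division by length, FOXN3 came to 3.06 times and FOXO1 to 1.60 times FOXQ1, which was then 8th. With rows of a mean count of at least 50 it was 5th, as FOXK1 came to 0.975 times its level. FOXM1 and FOXK2 were above FOXQ1, and FOXC1 and FOXJ3 below it, in all 6 ways of counting.

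**Figure D3:**
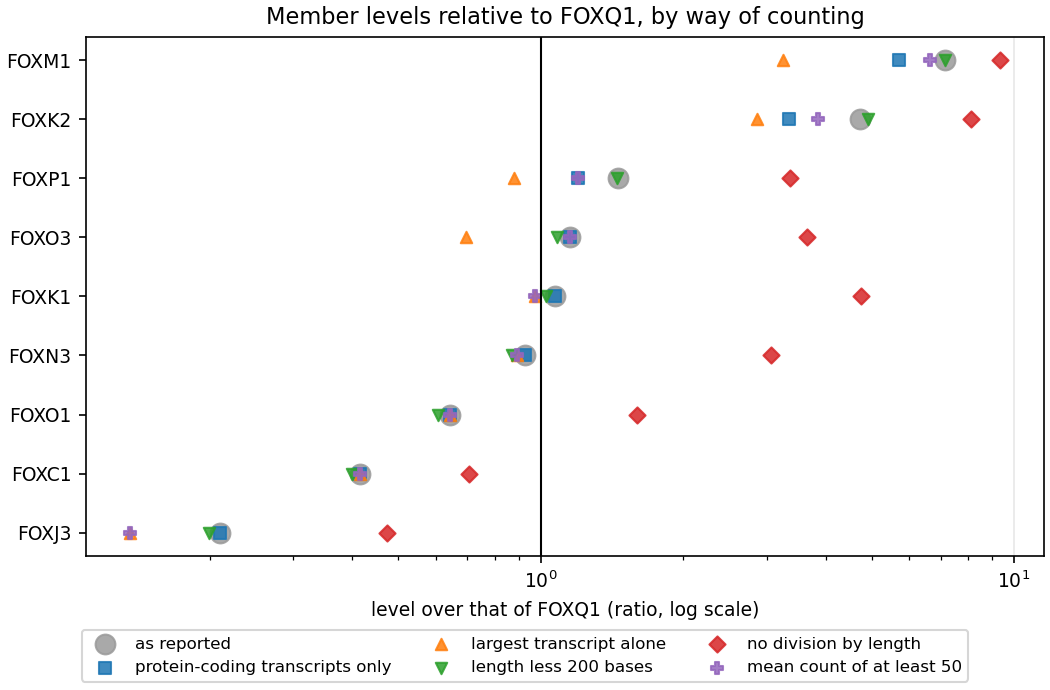
Level of each other member over that of FOXQ1, as a ratio on a log scale, with 1 marker for each of 6 ways of counting and a vertical line at equality with FOXQ1. FOXM1 and FOXK2 stay right of the line and FOXC1 and FOXJ3 left of it in each, while FOXP1, FOXO3, FOXK1, FOXN3 and FOXO1 have markers on both sides.

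Among the 3′UTRs of the members, FOXQ1 had the shortest, at 842 bases, followed by FOXM1 at 958 bases, and FOXK1 had the longest at 8978 bases. The median over 12041 genes was 1246 bases with 2 AUUUA pentamers. FOXQ1 with its 3 pentamers was no exception by count, since 45.9% of genes had at least 3, and 8 members had more than FOXQ1.

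Per kb of 3′UTR, FOXQ1 had 3.56 AUUUA pentamers, the highest value of the 10 members and percentile 78.8 among all genes, beside a median of 1.74. FOXC1 followed with 3.35 per kb from 6 pentamers in 1790 bases. FOXN3 had 2.72 per kb from 17, FOXO1 2.37 from 8, FOXK2 2.26 from 7, FOXJ3 2.21 from 7 and FOXP1 2.20 from 10. The FOXP1 count is that of FOXP1-001, which held 6.02% of the FOXP1 level, and it was 0 with the leading transcript FOXP1-201 in its shorter release 44 form. FOXO3 had 1.20 per kb from 6, and FOXK1 0.557 from 5 in the longest 3′UTR. FOXM1, the member with the highest level, had no AUUUA in its 958 bases. Outside the members, FOXA1 (3.86 per kb), FOXD2 (3.75 per kb) and FOXN2 (3.63 per kb) were above FOXQ1.

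At least 1 AUUUA was present in 9 of the 10 members (8 with the short form of FOXP1-201), against 72.6% of all genes, and at least 1 UAUUUAU in 6 of 10 (5 with that form), against 35.1%. FOXJ3 and FOXN3 had 3 heptamers each, and FOXQ1, FOXP1, FOXK1 and FOXK2 had 1 each. FOXO1, FOXO3 and FOXC1 had pentamers but no heptamer. Longer 3′UTRs hold more of any short motif, and 8 members had a longer 3′UTR than the median gene, so these shares are given as descriptions. The AU content of the FOXQ1 3′UTR was 58.8%, near the median of 58.3% over all genes.

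**Figure D4:**
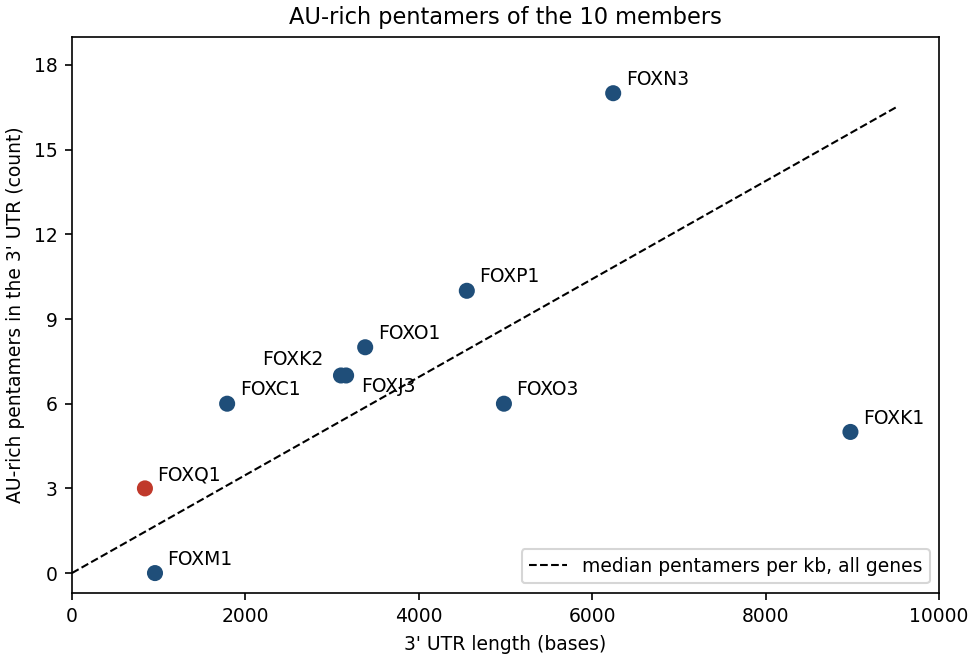
AUUUA pentamers in the 3′UTR (count, vertical axis) against 3′UTR length in bases (horizontal axis) for the 10 members, with FOXQ1 in red and the median density of all genes (1.74 per kb) as a dashed line. FOXQ1 at 842 bases has 3 pentamers and lies above the line, FOXM1 at 958 bases has 0, and FOXK1 and FOXO3 lie below the line.

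FOXQ1 encodes a protein of 403 residues, the shortest among the members. Residues 119 to 191 of it, 73 in all, could be aligned with each of the other 9 members. In this stretch FOXC1 was the most similar at 58.3% identity, followed by FOXN3 at 52.1% and FOXJ3 at 51.4%. FOXM1 had 47.8%, FOXK2 47.2%, FOXK1 45.8%, FOXO1 44.3%, FOXO3 42.9% and FOXP1 42.5%. FOXC1, the other member with 1 exon and a neighbour of FOXQ1 on chromosome 6, was also highest over the whole protein, at 40.2%. These percentages are shares of the aligned residue pairs, with gaps left out. Over the whole protein FOXC1 had 139 identical residues in 346 pairs, against 138 in 394 for FOXM1. The order of the others did not hold over the whole protein, as FOXN3 was the lowest at 26.0%, FOXJ3 had 30.9% and FOXK2 29.2%.

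Genes known to act on the forkhead factors or with them were compared with the factors by level. All 18 regulators of FOXO proteins in the list had a row, with a median level of 231 per kb. The highest were 3 genes of 14-3-3 proteins, YWHAE at 4991 per kb, YWHAQ at 4413 per kb and YWHAZ at 2611 per kb, against 120 per kb for FOXO3 and 66.7 per kb for FOXO1. The lowest was SGK1, a kinase of FOXO proteins, at 2.32 per kb.

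All 11 genes of FOXM1 partners in the MuvB complex and of cell cycle kinases were listed, with a median of 223 per kb. CDK1 at 1628 per kb, PLK1 at 1198 per kb and MYBL2 at 888 per kb were the highest, and each was above the 742 per kb of FOXM1. The 6 genes of FOXK partners had a median of 419 per kb, with the deubiquitinase BAP1 at 929 per kb and DVL1 at 895 per kb above the 491 per kb of FOXK2, and DVL2 at 427 per kb below it. Among corepressor genes for FOXP1 and FOXN3, CTBP1 had 473 per kb, NCOR1 259 per kb and CTBP2 53.9 per kb. The median of all genes was 108 per kb, so the lists of FOXO regulators, FOXM1 partners and FOXK partners had medians above it.

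The cells were checked against their label. All 8 genes of the mesenchymal triple-negative state were listed, from CD44 at 427 per kb to VIM at 10135 per kb. Among luminal genes, ESR1 and PGR had no row, and GATA3, FOXA1 and TFF1 were at 29.5, 39.5 and 132 per kb. Of 6 epithelial genes, CDH1 and ESRP1 had no row and the others ranged from 16.4 to 139 per kb. None of 4 blood cell genes had a row.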

How the data were processed

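The data are 4 RNA-seq libraries of MDA-MB-231 cells, 2 with DMSO and 2 with 10 µM KH-3 for 24 h. The authors used STAR with the GENCODE release 24 annotation (hg38), eXpress for counts per transcript and DESeq2 for the comparison. Their versions are not given in the sources used here. The deposited signal is a mean normalised read count for each transcript, formed by the authors over libraries that they do not name. Their methods also name a 5 µM group. The table further holds the log2 fold changes, p-values and q-values of the authors' comparison, which were not used. It has no value per library, so the planned edgeR test could not be run and depth and precision are unknown.

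From it, mean counts were divided by transcript length and summed by gene symbol, with no filter and no pseudocount. Structure, 3′UTR, shared 50-base stretches and protein alignments came from GENCODE release 44, matched by transcript ID (30 of 31 member transcripts, 20 with equal length). For each gene the protein-coding transcript with the largest mean count was used whose release 44 length was at least 75% of that in the table, otherwise the canonical one (204 genes). Promoters and amino acids are not printed. Motifs were searched on the transcript strand, with overlaps counted, and each UAUUUAU also holds an AUUUA. Named are all members, every other listed forkhead gene, transcripts with at least 10% of a level or the largest of their type, and the 3 highest genes of each partner list, less a few list genes that are not reported here. The members and lists were chosen with earlier results of these data known. The scripts recovered known answers on simulated data. Python 3.11.15, numpy 2.4.6, pandas 2.3.3, Biopython 1.88 and matplotlib 3.10.9 were used.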

Additional observations from a re-analysis of the deposited data

How the results depend on the processing

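Of 119 values under alternatives, 88 moved by less than 1.5 times and kept their side of FOXQ1, 25 moved more and 6 changed side. FOXQ1, 6th of the members, was 8th without division by length, 5th with rows of a mean count of at least 50 and 3rd with the largest transcript alone. With the latter, the ratios to FOXQ1 of FOXO3, FOXP1 and FOXK1 were 0.696, 0.878 and 0.975. With rows of a mean count of at least 50, FOXK1 was at 0.975. Without division by length, FOXO1 was at 1.60 and FOXN3 at 3.06, as the longer transcripts then weigh more. The other changes were 9 in the heptamer count in place of the pentamer, 3 in protein identity over the whole protein, and ratios or shares that kept their side. The FOXP1 pentamer count was 0 when the shorter release 44 form of FOXP1-201 was used, an alternative that was added after the data were seen, as was the length rule of 75%. No paired analysis was possible because the table has no values per library. The edgeR test, DESeq2, the replicate block and leaving out each replicate were not run for the same reason. Sums cover listed transcripts only. By transcript ID, the canonical transcript of release 44 was listed for 85.9% of genes and 7 of 10 members (not FOXC1, FOXP1 and FOXN3). Levels may therefore be too low where a main transcript has no row. For FOXC1 this does not show a missing main transcript, because the ID of its listed transcript, of 3926 bases, is not in release 44. The canonical FOXC1 transcript there has 1 exon and 3983 bases. The 85.9% can include such changes of ID.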
